A study of Mus musculus with 39 samples.

Results

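The lungs described here are 7 of the 19 taken after 14 days of diet, out of 39 lungs in the series, and were chosen by how unevenly their arrays read the 2 ends of the Gapdh transcript. An array entered this set when log2 of its deposited signal at the 3' Gapdh control probe set minus log2 of that at the 5' control probe set was above 0.7, and the other 12 lungs of 14 days lay at or below that value. These 7 are called high-ratio lungs below. They comprised 2 of 5 lungs from mice fed permethrin at 5000 ppm (replicates 4 and 5), 1 of 4 at permethrin 10000 ppm (replicate 3), 2 of 5 at isoniazid 2500 ppm (replicates 3 and 5) and 2 of 5 from control mice (replicates 4 and 5). All animals were females of the outbred Crlj:CD1(ICR) stock, aged 12 weeks at 14 days and 11 weeks at 7 days, and each array carried the RNA of the lung of 1 mouse. Permethrin is a pyrethroid insecticide, and isoniazid is an antituberculosis drug that served the study as a positive control for tumours. All mice ate powdered feed, and their lungs were kept in an RNA-stabilizing solution before extraction. P-values therefore measure the spread between animals, and the number of arrays limits the precision.

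A 3' labelling kit primes its first copy of each messenger RNA at the poly(A) tail and copies towards the 5' end. A broken or incompletely copied transcript thus yields its 3' probe sets but less of its 5' probe sets, and the ratio of the 2 ends of an abundant housekeeping transcript is a common check of RNA integrity. Gapdh encodes a glycolytic enzyme and Actb encodes cytoplasmic actin, and the array carries probe sets at the 3' end, the middle and the 5' end of both. No integrity measurement made on the RNA itself was used here, so the lungs are called by the ratio and not by an integrity grade.

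The Gapdh ratio that set the groups was 0.79 at its lowest, 1.34 at its median and 1.88 at its highest in the high-ratio lungs (log2, 3' minus 5'). It was -0.17, 0.16 and 0.58 at the same points in the other 14-day lungs. Just above the limit lay control replicate 5 at 0.79 and isoniazid replicate 3 at 0.93, and just below it lay isoniazid replicate 1 at 0.58 and permethrin 5000 ppm replicate 1 at 0.57. No lung numbered replicate 1 or 2 was above the limit. The 20 lungs of 7 days spanned -0.35 to 0.66, so none of them reached it. The 5' signal set the lungs apart more than the 3' signal did. At the 5' end the deposited signal was 405 to 949 units in high-ratio lungs, against 1137 to 2095 units in the others. At the 3' end it was 1239 to 2761 units in high-ratio lungs, against 1361 to 2452 units in the others, and the ranges overlapped. These values chose the lungs and are given as a description, with no test.

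Actb, which the choice did not use, was uneven in the same lungs. Its 3' minus 5' difference was 1.11, 1.37 and 2.37 (lowest, median, highest, log2) in the 7 high-ratio lungs, against 0.49, 0.64 and 1.02 in the other 12. The groups did not overlap. The mean difference between them, taken within treatments, was 0.80 (exact permutation test within treatments, two-sided, p = 0.00025, the smallest that its 4000 assignments can give, and 0.00108 after Benjamini-Hochberg adjustment over 13 values per array). Both segments of Actb contributed, with 0.42 between the 3' end and the middle and 0.38 between the middle and the 5' end (exact permutation p = 0.00025 each). In the 7-day lungs the Actb difference spanned 0.43 to 1.07, below the lowest high-ratio value of 1.11.

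**Figure D1:**
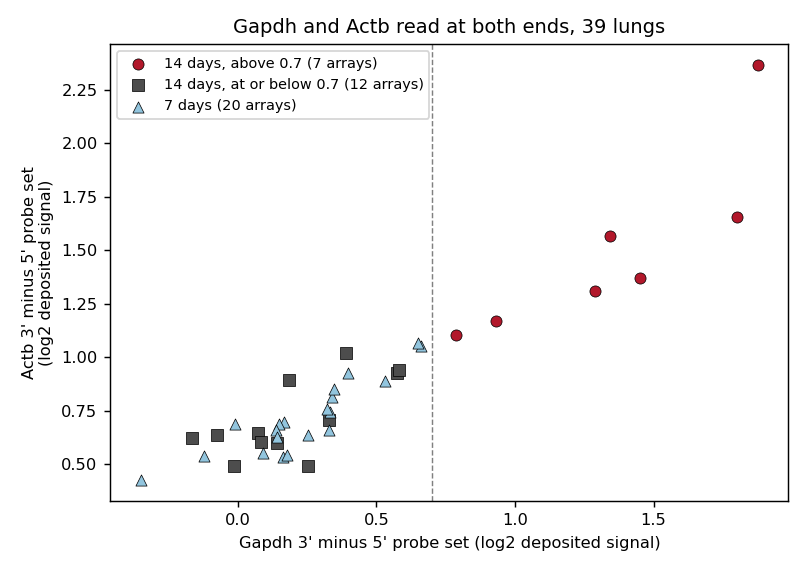
Each point is 1 lung, with the 3' minus 5' difference of Gapdh on the x axis and that of Actb on the y axis, both as log2 of the deposited signal. Circles are the 7 high-ratio lungs of 14 days, squares the other 12 of 14 days and triangles the 20 of 7 days, and the dashed line is the limit of 0.7. All 7 circles lie at 1.11 or above on the Actb axis, and all squares and triangles lie below them.

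The other control transcripts did not follow in the same way. The pyruvate carboxylase gene Pcx, whose long transcript is also read at both ends, had a 3' minus 5' difference of 2.19, 2.60 and 3.69 (lowest, median, highest) in high-ratio lungs, against 2.37, 3.02 and 4.70 in the others. Its difference between groups was -0.33 and did not pass (exact permutation p = 0.182, adjusted 0.24). It was -0.50 without isoniazid replicate 5 (exact permutation p = 0.0394, unadjusted). The transferrin receptor control sets were dim, and their group difference of 0.89 did not pass either (exact permutation p = 0.282, adjusted 0.334). The 18S ribosomal RNA sets moved the other way, at -0.97 in the median high-ratio lung and -0.65 in the median other lung, a difference of -0.34 (exact permutation p = 0.0045, adjusted 0.0117), while their mean level differed by -0.01 (exact permutation p = 0.847). The difference between the ends of 18S was -0.58 and -0.75 within permethrin 5000 and 10000 ppm, and -0.10 and -0.09 within isoniazid and control. The bacterial controls bioB, bioC, bioD and cre, which enter at hybridization already labelled, differed by -0.08, -0.09, -0.06 and -0.04, and none passed after adjustment (lowest exact permutation p = 0.0415 for bioC, adjusted 0.0771). The 5' Pcx set was dim as well, at 13.8 to 17.5 units in the control lungs of 7 days. The array medians of those lungs were 17.8 to 22.6 units. The same values of the 14-day lungs are not given here. If the 5' set was as dim there, a further loss at the 5' end of Pcx could be missed. Uneven reading in the high-ratio lungs was thus measured at Gapdh and Actb, and these sets do not decide whether it extended to other transcripts.

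The distribution of signals over the whole array was narrower in high-ratio lungs. The array median was 4.16, 4.59 and 4.71 (lowest, median, highest, log2 deposited signal), against 4.17, 4.27 and 4.54 in the others, a difference of 0.22 (exact permutation p = 0.0122, adjusted 0.0265). The interquartile range was 3.71, 3.79 and 4.17, against 3.78, 4.25 and 4.43, a difference of -0.34 (exact permutation p = 0.00225, adjusted 0.00731). Gene values below are therefore given after quantile normalization, which sets every array to the same distribution. With each array centred on its median instead, the median difference over all genes was -0.22, against -0.03 after quantile normalization, so all directions below are relative to the scaling.

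Across the 13020 genes tested, 1261 differed between high-ratio and other 14-day lungs with treatment in the model (limma, Benjamini-Hochberg adjusted p under 0.05), or 9.69% of all genes. Of these, 440 were higher (3.38%) and 821 lower (6.31%), so 34.9% of the calls were higher. With each array centred on its median, 2949 genes were called and 2% of those calls were higher. The sign was the same within all 4 treatments for 413 of the 440 higher genes and 792 of the 821 lower ones. These signs come from the same lungs that gave the calls, so much of this agreement is built in and is not replication. At permethrin 10000 ppm they rest on 1 high-ratio lung. The median size of a called difference was 0.404 on the log2 scale, against 0.162 over all genes. The 2 groups did not overlap at 97 of the called genes, 0.745% of all tested. The count rested in part on single lungs: it was 675 without control replicate 4, 728 without permethrin 10000 ppm replicate 3, 787 without permethrin 5000 ppm replicate 5 and 825 without permethrin 5000 ppm replicate 3. Calls were more frequent among bright genes, at 14.7% in the brightest quartile and 3.93% in the dimmest.

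Genes of the heat shock and unfolded protein response had the highest share called among the 37 lists examined. Of 36 measured members, 14 were lower in high-ratio lungs and none was higher (38.9% called, against 9.69% of all genes), with a median difference of -0.30 against -0.03 over all genes, and 33 of the 36 lay below 0. These genes encode chaperones, which fold new or damaged proteins, and enzymes of the endoplasmic reticulum. Many are switched on by heat shock factor 1 during cell stress. All 14 are named here. Dnajb4, Pdia3, Atf4, Serpinh1, Hspa1a and Hspa1b came from the naming rule, and the others were named after their values were seen.

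Among the cytosolic chaperones, the HSP70 genes Hspa1a and Hspa1b differed most. Hspa1a had a normalized signal of 144, 206 and 546 units (lowest, median, highest) in high-ratio lungs, against 183, 555 and 2059 units in the other 14-day lungs. It fell by 1.62 on the log2 scale (SE 0.40, limma adjusted p = 0.0177). Hspa1b had 943, 1481 and 2387 units in high-ratio lungs, against 1197, 3227 and 5650 units in the others, and fell by 1.06 (SE 0.27, limma adjusted p = 0.0198). The groups overlapped for both genes, and every high-ratio lung was below the median of the others. The 2 genes are near-identical copies, so their probe sets may read each other's RNA. The Hspa1b call was lost without control replicate 4 (adjusted p = 0.0569). The constitutive HSP70 gene Hspa8 fell by 0.26 (SE 0.07, adjusted p = 0.0266), and Hsph1, an HSP110 partner of HSP70, fell by 0.65 (SE 0.20, adjusted p = 0.0492).

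The HSP40 co-chaperones, which hand clients to HSP70, were lower too. Dnajb4 had 498, 512 and 581 units in high-ratio lungs, against 651, 793 and 921 units in the others. The groups did not overlap, and the fall was 0.58 (log2 difference -0.58, SE 0.07, limma adjusted p = 0.00014). Dnajb1 fell by 1.001 (SE 0.18) and Dnaja1 by 0.84 (SE 0.15), both with a limma adjusted p of 0.00343. The mitochondrial chaperonin pair Hspd1 and Hspe1, made from 1 shared promoter region, fell by 0.52 (SE 0.10, adjusted p = 0.00383) and 0.36 (SE 0.09, adjusted p = 0.0142). Chordc1, a co-chaperone of HSP90, fell by 0.52 (SE 0.14, adjusted p = 0.0268). Bag3 at -0.36 (SE 0.11), Hspb1 at -0.31 (SE 0.14) and Hsp90aa1 at -0.20 (SE 0.08) did not pass.

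In the endoplasmic reticulum, Pdia3, a disulfide isomerase acting on glycoproteins, had 535, 884 and 1009 units in high-ratio lungs, against 908, 1536 and 1981 units in the others. It fell by 0.85 (SE 0.14, limma adjusted p = 0.0023). Serpinh1, the collagen chaperone, had 479, 624 and 831 units, against 499, 963 and 1303 units, and fell by 0.70 (SE 0.12, adjusted p = 0.00276). Pdia4 fell by 0.41 (SE 0.08, adjusted p = 0.00656). Atf4, the transcription factor of the integrated stress response, had 734, 793 and 877 units, against 884, 1031 and 1136 units, with no overlap, and fell by 0.36 (SE 0.06, adjusted p = 0.0023). The general markers of endoplasmic reticulum stress were not called, as Hspa5 differed by -0.17 (SE 0.12), Hsp90b1 by -0.19 (SE 0.14), Ddit3 by -0.22 (SE 0.11) and Xbp1 by -0.03 (SE 0.06).

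**Figure D2:**
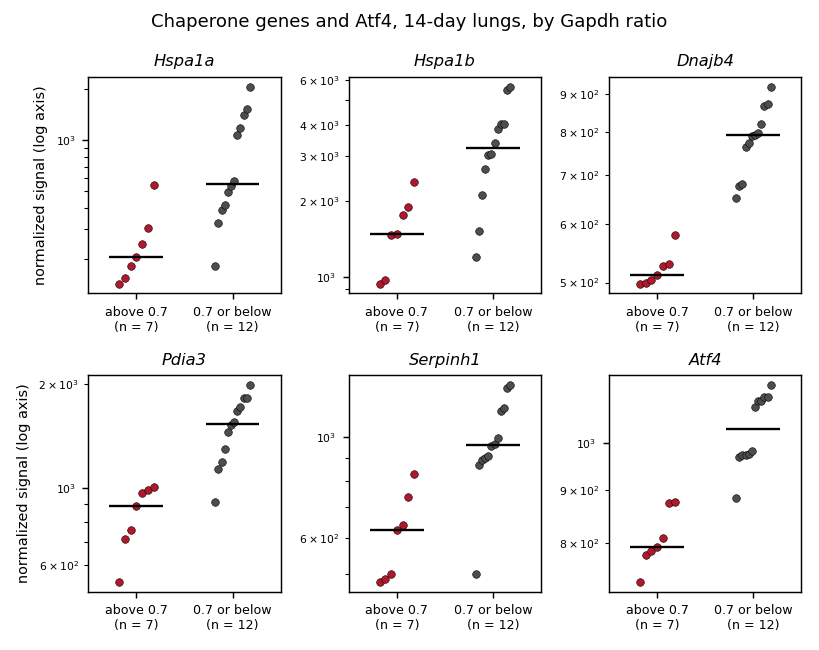
Normalized signal (log axis) of 6 heat shock and unfolded protein genes in each 14-day lung, with the 7 high-ratio lungs on the left and the other 12 on the right of every panel, and a line at each group's median. Dnajb4 and Atf4 do not overlap between groups, and in Hspa1a and Hspa1b the other lungs spread over a wider range than the high-ratio lungs.

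Heat shock factor 1 binds repeats of the block GAA in alternating orientation. Promoters from RefSeq (assembly GRCm38.p6, 250 bases before to 50 after each gene start) were searched for GAANNTTC or TTCNNGAA, each of which reads the same on both strands, with overlapping matches counted. Each gene was scored at its promoter with the most matches. Of the 14 lowered genes 13 had a promoter, and 8 of these had a match, 61.5%. Over the whole list it was 12 of 32, 37.5%. A match stood in 14.1% of the genes tested that had a promoter, and in 17% of all 27025 genes with one. At least 2 matches stood in 4 of those 13, in 5 of 32, in 1.57% of genes tested and in 2.21% of all. Hspa1a and Hspa1b, with near-identical windows, count as 2 genes here, as do Hspd1 and Hspe1, whose windows overlap. The promoters below show the HSP70 pair, which carry 1 match each, and the lowered genes with at least 3, with matches in capitals. Hspd1 shares 285 bases of its window with Hspe1 on the opposite strand, and the Hspe1 window is printed.
Hspa1a: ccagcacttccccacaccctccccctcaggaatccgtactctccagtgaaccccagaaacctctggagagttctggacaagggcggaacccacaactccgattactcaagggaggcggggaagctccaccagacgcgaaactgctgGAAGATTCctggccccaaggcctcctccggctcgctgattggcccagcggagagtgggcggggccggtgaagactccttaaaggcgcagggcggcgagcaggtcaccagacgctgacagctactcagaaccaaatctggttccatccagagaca
Hspa1b: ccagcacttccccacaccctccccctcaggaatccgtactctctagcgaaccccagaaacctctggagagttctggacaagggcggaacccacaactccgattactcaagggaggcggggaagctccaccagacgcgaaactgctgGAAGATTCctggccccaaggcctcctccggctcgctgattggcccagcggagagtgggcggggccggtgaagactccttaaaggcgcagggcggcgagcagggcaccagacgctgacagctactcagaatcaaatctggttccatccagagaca
Hsph1: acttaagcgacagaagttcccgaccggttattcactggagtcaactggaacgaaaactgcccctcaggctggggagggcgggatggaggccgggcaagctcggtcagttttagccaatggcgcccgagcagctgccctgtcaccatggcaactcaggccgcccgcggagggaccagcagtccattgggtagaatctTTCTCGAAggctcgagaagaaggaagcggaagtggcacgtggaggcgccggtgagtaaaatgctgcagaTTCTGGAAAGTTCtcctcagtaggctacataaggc
Hspe1: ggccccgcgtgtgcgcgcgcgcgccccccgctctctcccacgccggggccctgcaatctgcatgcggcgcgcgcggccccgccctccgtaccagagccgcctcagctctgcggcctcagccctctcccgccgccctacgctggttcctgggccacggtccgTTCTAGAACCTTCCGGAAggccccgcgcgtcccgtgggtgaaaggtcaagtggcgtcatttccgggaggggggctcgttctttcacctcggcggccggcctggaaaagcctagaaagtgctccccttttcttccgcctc
Chordc1: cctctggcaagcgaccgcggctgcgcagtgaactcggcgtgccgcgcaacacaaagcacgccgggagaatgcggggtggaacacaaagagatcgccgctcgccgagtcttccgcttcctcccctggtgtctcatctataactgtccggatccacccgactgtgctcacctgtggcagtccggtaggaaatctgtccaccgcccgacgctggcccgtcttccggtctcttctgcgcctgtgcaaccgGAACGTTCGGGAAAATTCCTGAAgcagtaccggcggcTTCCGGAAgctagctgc

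These windows lie on GRCm38.p6 with Hspa1a at chr17:34972107-34972406 (minus strand), Hspa1b at chr17:34959189-34959488 (minus strand), Hsph1 at chr5:149636266-149636565 (minus strand), Hspe1 at chr1:55087898-55088197 (plus strand) and Chordc1 at chr9:18292017-18292316 (plus strand). The Hspa1a and Hspa1b windows differ at 4 of 300 bases, so the pair is close to identical upstream of the start as well. A match is a description of the letters and not a measured binding site. Dnajb1, Pdia3, Serpinh1, Pdia4 and Atf4 had no match in this window, which says nothing of sites elsewhere. The motif was chosen after the gene values were seen. The list was written as heat shock genes, so a higher share of matches than over all genes is largely built in. It does not show what lowered these genes, which was not tested.

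In the 20 lungs of 7 days, which the choice did not use and whose Gapdh ratios span a smaller range, the slope of each gene on the ratio was fitted as a comparison. At 7 days 502 genes passed (3.86%, limma adjusted p under 0.05), 368 with a positive slope (2.83%) and 134 with a negative one (1.03%). That count was 55 without permethrin 5000 ppm replicate 4, 145 without its replicate 2 212 without control replicate 1, 264 without isoniazid replicate 4, and was 801 without isoniazid replicate 3. Of the 1261 genes called at 14 days, 612 had a 7-day slope of the same sign, 48.5%, against 48.4% of all genes tested. The genes called at both times numbered 56, which is 4.44% of the 14-day calls and 11.2% of the 7-day calls, and 50 of these had the same sign. With every slope counted, however small, the 14-day calls thus shared their sign with the 7-day slope about as often as all genes did. Among called genes whose 7-day slope had an unadjusted limma p under 0.05, 204 had the same sign and 130 the opposite. That split was not counted over all genes.

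Heat shock genes mostly had the opposite sign at 7 days. Of the 14 lowered genes, 13 had a positive 7-day slope. Over all genes the 7-day slopes leaned positive as well, with 1833 positive and 888 negative at an unadjusted limma p under 0.05. For genes lowered at 14 days, part of the opposite sign is therefore the lean of all genes. Hspa1a had a slope of 2.48 log2 units per unit of the ratio (SE 1.17), which did not pass (limma adjusted p = 0.234). Pdia3 was the exception, with a slope of -0.59 (SE 0.16, limma adjusted p = 0.0397), and was the only one of the 14 called at 7 days. All 7 immediate early genes called at 14 days, 5 of them higher, also had a 7-day slope of the opposite sign. So had 6 of 7 fibroblast genes and 4 of 5 cell cycle genes, all lower at 14 days. None of the immediate early or cell cycle slopes passed. Of these fibroblast genes, Col14a1 was called at 7 days in the opposite direction, with a slope of 1.01 (limma adjusted p = 0.0186). The 3 endothelial genes kept their sign, and Tmem100 was called, with a slope of -0.40 (limma adjusted p = 0.03865).

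**Figure D3:**
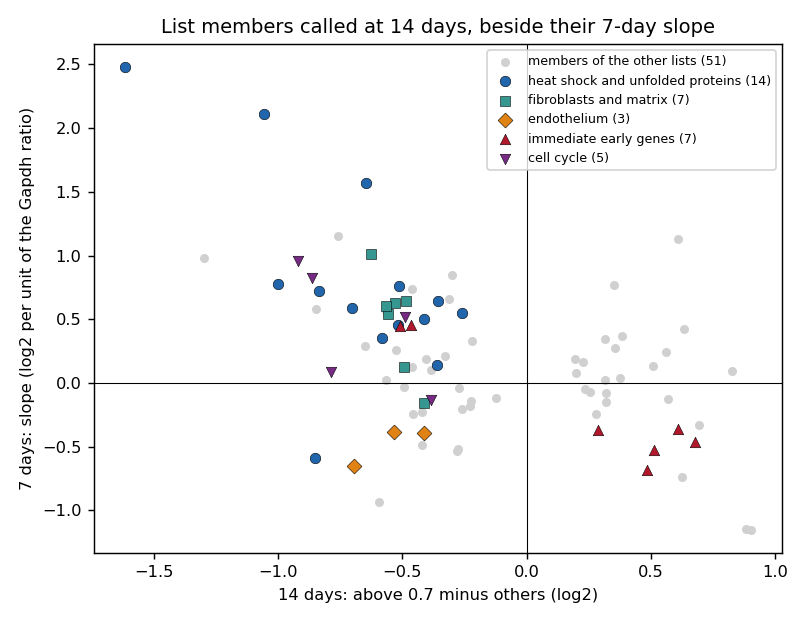
Every list member called at 14 days, with its difference between high-ratio and other 14-day lungs on the x axis (log2) and its slope on the Gapdh ratio in the 20 lungs of 7 days on the y axis (log2 per unit of the ratio). Filled symbols mark 5 lists and grey points the rest. Heat shock genes other than Pdia3 lie in the upper left, with opposite signs, and the 3 endothelial genes in the lower left.

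Of 41 fibroblast and matrix genes, 7 fell and none rose (17.1% called, against 9.69% of all genes, median -0.20, 35 below 0). Col14a1, a collagen of fibril surfaces, had 67.3, 126 and 150 units in high-ratio lungs, against 124, 176 and 242 units in the others, and fell by 0.63 (SE 0.15, limma adjusted p = 0.0133). Its called 7-day slope, given above, had the opposite sign. The fibril collagens Col1a2, Col3a1 and Col5a2 fell by 0.57 (SE 0.17), 0.53 (SE 0.14) and 0.56 (SE 0.13), and the other 3 were Col6a3, the cadherin gene Cdh11 and Npnt, a basement membrane ligand of integrins. Without permethrin 5000 ppm replicate 4, or without permethrin 10000 ppm replicate 3, the count was 4. Of 39 endothelial genes, 3 fell (7.69% called, against 9.69% of all genes, median -0.07, 25 below 0). Over all 13020 genes, 7328 lay below 0. Emcn, a sialomucin of capillaries and veins, had 140, 248 and 326 units in high-ratio lungs, against 295, 349 and 561 units in the others, and fell by 0.69 (SE 0.14, limma adjusted p = 0.00512). Pecam1, a junction molecule, fell by 0.54 (SE 0.11, adjusted p = 0.00656) and Tmem100 by 0.41 (SE 0.11, adjusted p = 0.0294). Of 24 smooth muscle genes, the contractile genes Myh11 and Myl9 fell (8.33% called, against 9.69% of all genes), by 0.85 (SE 0.19) and 0.52 (SE 0.12). The endothelial and smooth muscle shares thus lay near that of all genes and say nothing of these cell types as a whole. In whole lung, fewer cells of a type and less RNA per cell cannot be told apart.

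Genes of dividing cells were lower in part, most of them at low signal. Of 34 cell cycle genes, 5 fell and none rose (14.7% called, against 9.69% of all genes, median -0.35, 27 below 0). Over all 13020 genes, 7328 lay below 0. The mean log2 level of the list overlapped under isoniazid, with 5.12 and 5.71 in high-ratio lungs, against 5.365 to 5.75 in the others. It overlapped within no other treatment. Pcna, the sliding clamp of DNA polymerase, had 619, 679 and 835 units in high-ratio lungs, against 782, 921 and 1035 units in the others, and fell by 0.38 (SE 0.06, limma adjusted p = 0.00214). Cdk1, the kinase that starts mitosis, had 7.83, 16.1 and 21.7 units, against 17.4, 23.8 and 44.2 units, and fell by 0.86 (SE 0.17, adjusted p = 0.00488). The cyclin gene Ccnb2 fell by 0.79, the kinetochore gene Cenpf by 0.92 and Ube2c, a ubiquitin-conjugating enzyme of mitosis, by 0.49. The count ranged from 5 to 12 as single lungs were left out, with 12 without isoniazid replicate 5.

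Of 22 B cell genes measured, 21 were above 0 with a median of 0.56, and 2 passed (9.09%, near the 9.69% of all genes). At an unadjusted limma p under 0.05, 14 were higher and 1 was lower, 68.2% of the list against 26.2% of all genes in either direction. The mean log2 level of the list was 7.47 and 6.58 in the high-ratio control lungs, against 5.63 to 6.12 in the other control lungs, and 7.01 and 6.79 at permethrin 5000 ppm, against 5.76 to 6.71. The groups overlapped at permethrin 10000 ppm, with 6.45 in the high-ratio lung, against 6.04 to 6.77 in the others, and under isoniazid, with 5.78 and 6.10, against 5.78 to 6.26. Cd79b, a signalling chain of the B cell receptor, had 77.1, 215 and 379 units in high-ratio lungs, against 73.3, 110 and 208 units in the others, and was higher by 0.88 (SE 0.23, limma adjusted p = 0.0203). Its high-ratio values were lowest in the isoniazid lungs, at 77.1 and 141 units, and within isoniazid the differences of Cd79b and Ms4a1 were 0.02 and -0.07. Their 7-day slopes had the opposite sign, at -1.15 each, and did not pass. Ms4a1, which encodes CD20, had 109, 299 and 697 units, against 79.9, 149 and 332 units, and was higher by 0.90 (SE 0.28, adjusted p = 0.0476). The groups overlapped for both. Without control replicate 4 the list's median was 0.389 and 0 of its genes were called (limma). The Cd79b call was lost without control replicate 4 (adjusted p = 0.0576) or permethrin 5000 ppm replicate 4 (adjusted p = 0.0511), and that of Ms4a1 in 12 of 19 cases. The exception in sign was Cd74, the invariant chain of antigen presentation, at -0.61 (SE 0.20), which did not pass. The antibody segments Ighv14-2 and Iglv1 rose by 1.29 (SE 0.31, adjusted p = 0.0147) and 1.03 (SE 0.26, adjusted p = 0.0187). The Iglv1 call was lost without control replicate 4 (adjusted p = 0.054). The summed B cell signal was 2299 to 6281 units in high-ratio lungs, against 2281 to 6197 units in the others. Cd74 was the brightest member by median, at 939 units in high-ratio lungs and 1495 units in the others. The median sum was 3661 units in high-ratio lungs and 3262 units in the others, so Cd74 was only a part of it. How far Cd74 changed the overlap of the sums was not tested.

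Neutrophil genes had a median of 0.45, with 18 of 20 above 0, but none passed after adjustment (limma, 6 higher and 0 lower at an unadjusted p under 0.05). The median was 0.158 without permethrin 10000 ppm replicate 3, whose mean log2 level for the list was 8.28, the highest of the 19 lungs. At permethrin 5000 ppm that level was 6.75 and 6.49 in the high-ratio lungs, against 6.64 to 7.21 in the others. Mmp9 at 0.57 (SE 0.19) and Cxcr2 at 1.17 (SE 0.52) were among them. Their summed signal was 5564 to 22300 units in high-ratio lungs, against 4402 to 14980 units in the others. Other genes of blood leukocytes were called singly. Ccr2, the chemokine receptor of inflammatory monocytes, rose by 1.20 (SE 0.33, adjusted p = 0.0305), a call lost without any of 5 single lungs. Pram1, an adaptor of myeloid cells, rose by 1.17 (SE 0.27, adjusted p = 0.0122), which was lost without permethrin 10000 ppm replicate 3 (adjusted p = 0.055), and Cd300lf, an inhibitory receptor of myeloid cells, by 0.86 (SE 0.18, adjusted p = 0.00699). None of 30 T and NK cell genes passed, with 0 higher and 2 lower at an unadjusted limma p under 0.05. No deposited value was 0 and the lowest was 0.009 units, so a signal above 0 does not show that a marker was detected.

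The mean log2 levels of the B cell and neutrophil lists were added to the model as 2 covariates, a choice made after the values were seen. The number of genes called was then 26, with 9 higher and 17 lower. All 1261 genes kept their sign. The median size of their difference was 0.36 on the log2 scale, against 0.404 without the covariates, and the median standard error was 0.133, against 0.099. Among the 87 called genes that the naming rule gave, Grk6 (0.68, adjusted p = 0.0276) and Dnajb4 (-0.47, adjusted p = 0.0367) stayed past the threshold. The heat shock median was -0.13 in that model, with 1 of 36 called and 8 lower at an unadjusted p under 0.05. The fibroblast median was -0.08 with 0 called, and the cell cycle median was -0.37 with 0 called (limma, 6 and 11 lower at an unadjusted p under 0.05). How much of the difference belongs to the leukocyte genes was not tested further.

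The largest single rises were few and partly rested on single lungs. Gdpd3, a lysophospholipase D of the endoplasmic reticulum, rose by 2.095 (SE 0.63, limma adjusted p = 0.0413). It had 1107 units in control replicate 4, 826 units in permethrin 5000 ppm replicate 5 and 589 units in isoniazid replicate 3, and 29.4 to 57.8 units in the other 4 high-ratio lungs, against 17.8 to 55.3 units in the 12 others. The call was lost without any of those 3 lungs, and in 13 of 19 cases with 1 lung left out. Grk6, a kinase that desensitizes G protein-coupled receptors, did not rest on any single lung. It had 287, 415 and 518 units in high-ratio lungs, against 172, 227 and 283 units in the others, with no overlap, and rose by 0.85 (SE 0.10, limma adjusted p = 0.000127) with a difference of 0.72 to 0.99 in each treatment. Dnajc17, a J-domain protein of the nucleus, had 444, 791 and 1181 units, against 132, 298 and 596 units, and rose by 1.28 (SE 0.24, adjusted p = 0.00392). It is outside the heat shock list and rose where its J-domain relatives Dnajb1, Dnajb4 and Dnaja1 fell.

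**Figure D4:**
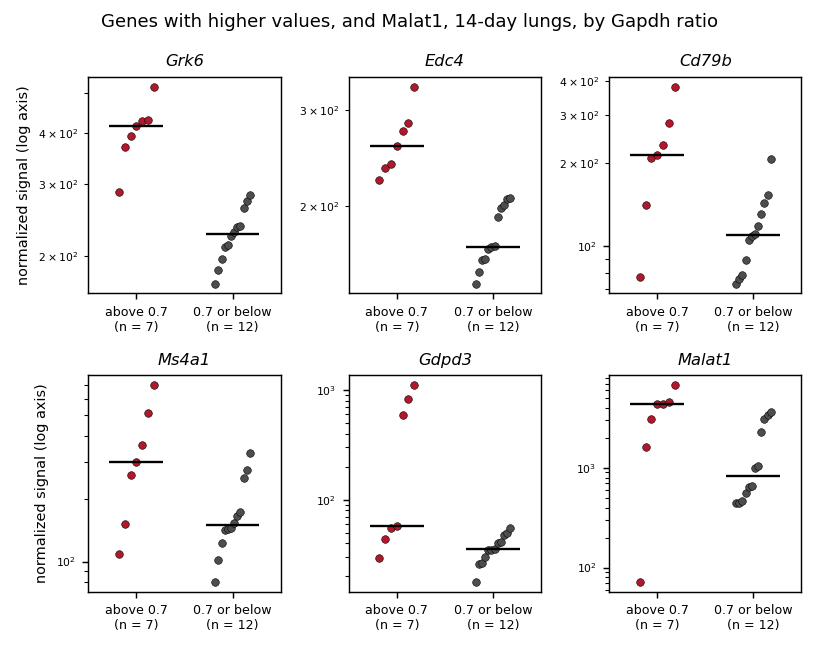
Normalized signal (log axis) of 5 genes that were higher in high-ratio lungs, and of Malat1, which was not called, in each 14-day lung. The 7 high-ratio lungs stand on the left and the other 12 on the right of every panel, with a line at each median. Grk6 and Edc4 do not overlap between groups, Gdpd3 is at 589 units or more in 3 high-ratio lungs, and Malat1 is at 71.9 units in 1 high-ratio lung.

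Several of the largest falls were of dim genes, and detection calls were not used here, so whether their low values lie above background was not tested. Smn1, needed for assembly of spliceosomal particles, had 1.83, 8.21 and 21.3 units in high-ratio lungs, against 20.2, 27.2 and 38.1 units in the others, and fell by 1.96 (SE 0.35, limma adjusted p = 0.00315). Slx1b, a structure-specific endonuclease subunit, had 2.09, 8.19 and 13.2 units, against 14.4, 19.1 and 26.9 units, with no overlap, and fell by 1.41 (SE 0.28, adjusted p = 0.00545). Thbs1, the matrix glycoprotein thrombospondin 1, was brighter, at 32.6, 82.4 and 170 units, against 126, 194 and 288 units, and fell by 1.40 (SE 0.27, adjusted p = 0.00406). Falls of 1 or more on the log2 scale numbered 19 and rises of that size 8. Of the genes called lower, 35 had a mean log2 signal within 1 of the filter, and of those called higher, 4.

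Of the 35 named genes called higher, 17 were still called with each array centred on its median, against 51 of the 52 called lower. Of 41 RNA-degrading enzymes and inhibitors, 4 rose and 2 fell (14.6% called, against 9.69% of all genes, median -0.02). Edc4, the scaffold of the decapping complex, had 224, 258 and 330 units in high-ratio lungs, against 145, 169 and 208 units in the others, with no overlap, and rose by 0.56 (SE 0.10, limma adjusted p = 0.00287). Dis3l2, an exonuclease that removes uridylated RNA from the 3' end, rose by 0.83 (SE 0.22, adjusted p = 0.0252), and the deadenylase subunits Cnot3 and Cnot2 by 0.35 (SE 0.10) and 0.23 (SE 0.07). Exosc3, a subunit of the RNA exosome, fell by 0.42 (SE 0.11, adjusted p = 0.0203), and Elavl1, which stabilizes AU-rich messages, by 0.22 (SE 0.06). Of 47 splicing factor genes, 6 rose and 2 fell (17.0% called). Hnrnpa1 rose by 0.39 (SE 0.09, adjusted p = 0.0102), and Tra2b fell by 0.38 (SE 0.07, adjusted p = 0.00392). With median centring Edc4 stayed called at 0.31 (limma adjusted p = 0.0376) and Dis3l2 at 0.79 (adjusted p = 0.016), while Hnrnpa1 at 0.13 (adjusted p = 0.526) and Cnot3 at 0.12 (adjusted p = 0.557) did not. The Dis3l2 call was lost without control replicate 4, permethrin 5000 ppm replicate 5 or permethrin 10000 ppm replicate 3.

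Of 37 cytosolic ribosomal protein genes, 3 rose and 1 fell (10.8% called, near the 9.69% of all genes, median 0.02). The fall was of Rpl4, at -0.12, and its call was lost in 16 of 19 cases with 1 lung left out. Rps25 had 164, 188 and 264 units in high-ratio lungs, against 103, 133 and 199 units in the others, and rose by 0.63 (SE 0.12, limma adjusted p = 0.00501). Of 59 respiratory chain genes, 1 fell (1.69%), Atp5b, the catalytic beta subunit of ATP synthase, with 1379, 1623 and 1777 units in high-ratio lungs, against 1922, 2170 and 2426 units in the others, no overlap and a difference of -0.42 (SE 0.06, adjusted p = 0.000721). Of 31 proteasome genes, 3 rose and 3 fell (19.4% called, against 9.69% of all genes). Of 45 genes of giant structural and matrix proteins, 6 fell and 1 rose (15.6%, median -0.02). Lama3, a laminin chain, fell by 0.57 (SE 0.12, adjusted p = 0.00662), and Hspg2, which encodes perlecan, rose by 0.61 (SE 0.15, adjusted p = 0.0145). Protein length was not used here.

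Immediate early genes, whose short-lived messages respond within minutes to a stimulus, were also split. Of 40 measured, 5 rose and 2 fell (17.5% called, against 9.69% of all genes, median -0.04). Gadd45b, a stress sensor of growth arrest, had 567, 690 and 1014 units in high-ratio lungs, against 287, 481 and 660 units in the others, and rose by 0.68 (SE 0.15, limma adjusted p = 0.0107). Btg1, Rgs2, Ier3 and Ccn1 rose by 0.29 (SE 0.07), 0.51 (SE 0.13), 0.49 (SE 0.13) and 0.61 (SE 0.17). With median centring Gadd45b at 0.42 (limma adjusted p = 0.0781), Rgs2 at 0.26 (adjusted p = 0.327) and Btg1 at 0.09 (adjusted p = 0.623) did not pass. Myc and Sik1 fell by 0.51 (SE 0.14) and 0.46 (SE 0.13). Fos at -0.05 (SE 0.15) and Egr1 at 0.04 (SE 0.19) did not pass, and the sign of each depended on the setting. Among inflammatory genes, the chemokine gene Ccl4 rose by 0.70 (SE 0.15, adjusted p = 0.0102), the 1 call among 27. The clock gene Clock fell by 0.57 (SE 0.12, adjusted p = 0.00621), and P4ha1, a prolyl hydroxylase of collagen in the hypoxia list, by 0.65 (SE 0.13, adjusted p = 0.0055).

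**Figure D5:**
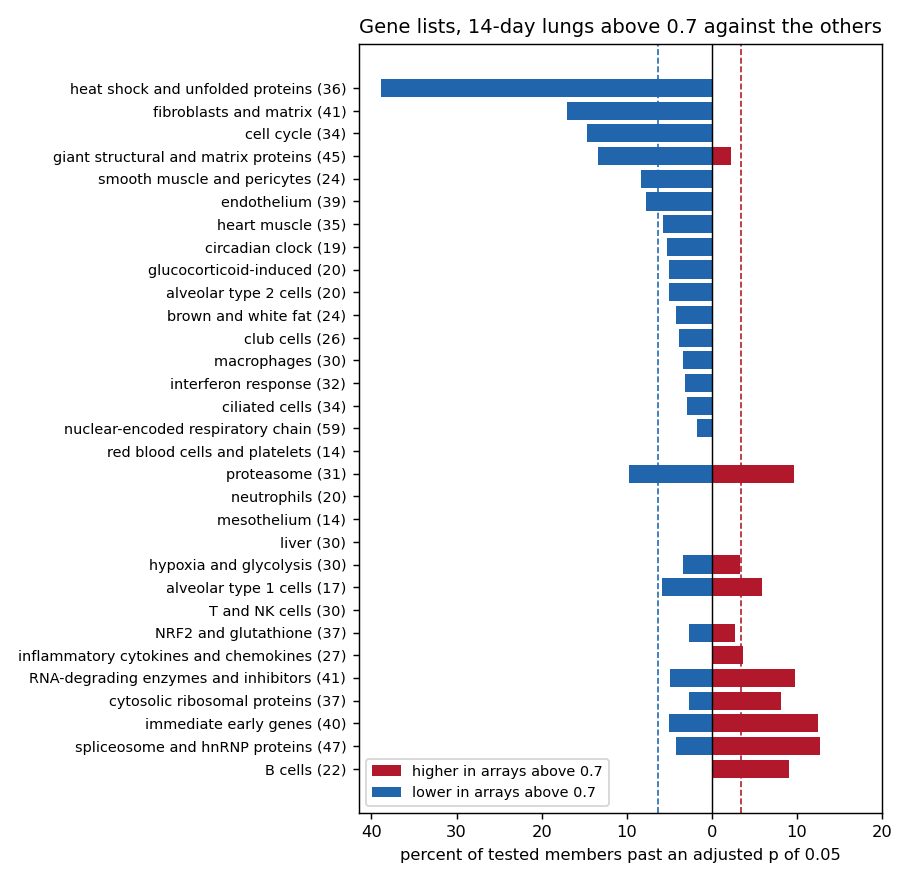
Share of the tested members of each list of 14 or more genes that passed an adjusted p of 0.05, with members lower in high-ratio lungs to the left of 0 and members higher to the right, and the number tested in brackets. Dashed lines mark the shares over all 13020 genes, 6.31% lower and 3.38% higher, and heat shock and unfolded proteins reach 38.9% on the lower side.

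Shares called among markers of the lung epithelium were near or below the 9.69% of all genes. Of 17 alveolar type 1 genes, 1 rose and 1 fell (11.8% called). In each of the other lists 1 gene fell, of 20 alveolar type 2 (5%), 26 club cell (3.85%) and 34 ciliated cell genes (2.94%). The surfactant gene Sftpc had 6743, 7309 and 7897 units in high-ratio lungs, against 6301, 7175 and 7897 units in the others, a difference of 0.03 (SE 0.04), and the club cell gene Scgb1a1 was at the top of the scale in both. Among alveolar type 1 genes, Rtkn2 rose by 0.23 (SE 0.07, limma adjusted p = 0.0451), a call lost in 16 of 19 cases with 1 lung left out and turned to -0.029 with median centring. The alveolar water channel gene Aqp5 fell by 0.27 (SE 0.07, limma adjusted p = 0.0143) and the desaturase gene Scd1 by 0.49 (SE 0.12, adjusted p = 0.0176), both without passing when permethrin 10000 ppm replicate 3 was left out (adjusted p = 0.055 and 0.0549). The club cell glutathione transferase gene Gsta3 had 309, 441 and 810 units in high-ratio lungs, against 455, 722 and 1211 units in the others, and fell by 0.60 (SE 0.12, adjusted p = 0.00622), with a 7-day slope of -0.93 (SE 0.23, adjusted p = 0.0299). C1qa fell by 0.46 (SE 0.14, adjusted p = 0.04996), the 1 call among 30 macrophage genes, lost in 16 of 19 cases of a lung left out. Among tissues that can be taken along with lung, heart muscle genes had 2 of 35 lower, Corin and Ldb3, with a summed signal of 7891 to 17490 units in high-ratio lungs, against 4842 to 27830 units in the others. Liver genes had a median of 0.28 with 0 of 30 called (limma, 5 higher at an unadjusted p under 0.05). The part of these tissues in the differences was not tested beyond the covariate model given with the settings.

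Probe sets of the same gene often parted. In a fit over all 23084 probe sets kept, 2881 passed (12.5%), with 803 higher (3.48%) and 2078 lower (9%). Of 5918 genes with at least 2 probe sets, 1897 had at least 1 called, and in 1825 of those every called set went the same way. The 1825 include genes with only 1 called set, which could not disagree. In 72 genes, called sets went both ways. The median gap between the highest and lowest set of a gene was 0.627 on the log2 scale with at least 1 set called and 0.306 with none. A wider gap is built into the first value, since a called set is one with a large difference. Of the 1897 genes, every set was of the same sign in 855 and called alike in 67. A gene's call thus often holds for the set chosen here, its brightest, and not for all that read it.

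Epb41l2, a membrane skeleton gene, had a set that fell by 1.56 (limma adjusted p = 0.000867), at 19.7, 36.2 and 63.4 units in high-ratio lungs, against 64.8, 104 and 163 units in the others, with no overlap. Its brightest set differed by -0.06 (adjusted p = 0.654). Scd2, a stearoyl-CoA desaturase, had 1 set lower by 1.33 (adjusted p = 0.00284) and another at 1.14, which did not pass. Rtn4, a shaper of the endoplasmic reticulum, had sets called at 1.11 (adjusted p = 0.0158) and -0.74 (adjusted p = 0.00113), while Tra2b, a splicing factor, had sets at 1.20 (adjusted p = 0.0486) and -0.59 (adjusted p = 0.00033). The last 2 were singled out after their values were seen. Positions of the probe sets along the transcripts were not used here, so the sets are not ordered from 5' to 3'.

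The treatment comparisons at 14 days gave similar calls with and without the ratio group. For permethrin 10000 ppm against control, 14 genes were called with it (0.108% of all) and 13 without it (0.0998%), of which 12 were in both. For permethrin 5000 ppm, 6 genes were called with it (0.0461%) and 5 without it (0.0384%), and the added gene was Pgd, an enzyme of the pentose phosphate pathway. Pgd was 0.75 higher at permethrin 5000 ppm in both fits, with an SE of 0.13 with the ratio group (limma adjusted p = 0.0473) and 0.17 without it (adjusted p = 0.300). Pgd was itself 0.36 higher in high-ratio lungs (SE 0.10, adjusted p = 0.0337), a call lost without any of 5 single lungs. For isoniazid, the same 2 genes (0.0154%) were called in both fits, Cyp1a1 and Serpina1c. They are named after their values were seen. The control, permethrin 5000 ppm and isoniazid groups hold the same share of high-ratio lungs, 2 of 5, so the ratio group changes the error and not the difference between them. These comparisons share their control lungs. With single lungs left out the count for permethrin 10000 ppm was 8 without its replicate 2 and 9 without its replicate 1 or control replicate 2. The count for permethrin 5000 ppm was 2 without its replicate 1, 2 or 4 or control replicate 2 or 5, and 3 without its replicate 5 or control replicate 3. The count for isoniazid was 1 in 9 of 19 cases.

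Gsta2, Srxn1 and Nqo1, genes of the oxidative stress response that were higher under permethrin, did not pass with the ratio. Of 37 NRF2 and glutathione genes, 1 rose and 1 fell with it, Pgd and Gsta3 (5.41%). Gsta2, a glutathione transferase gene, was 2.23 higher at permethrin 10000 ppm (SE 0.26, limma adjusted p = 0.000278) and differed by 0.12 (SE 0.19) between high-ratio and other lungs. Srxn1, which repairs oxidized peroxiredoxin, was 1.68 higher at permethrin 10000 ppm (SE 0.18, adjusted p = 0.000214) and differed by -0.04 (SE 0.13) with the ratio. Nqo1, a quinone reductase gene, was 1.67 higher (SE 0.31, adjusted p = 0.0371) and differed by -0.10 (SE 0.22). These averages join differences of opposite sign, since within permethrin 10000 ppm the high-ratio lung differed from the others by -0.64 for Gsta2, -0.82 for Srxn1 and -1.49 for Nqo1, and within isoniazid the differences were 0.34, 0.31 and 0.46. Cyp1a1, the target of the aryl hydrocarbon receptor, was 3.07 higher under isoniazid (SE 0.29, adjusted p = 2.13e-05) and lower under permethrin 10000 ppm (log2 difference -2.16, SE 0.30, adjusted p = 0.00184), and differed by -0.67 (SE 0.22) with the ratio, which did not pass (limma adjusted p = 0.0556). Cyp1a1 passed in 6 of 36 alternatives, among them the runs without control replicate 3 or 5 and without permethrin 5000 ppm replicate 1 or 4 (lowest adjusted p = 0.0204). With the 7 high-ratio lungs left out, 28 genes were called for permethrin 10000 ppm, 12 of them among the 14, 3 for permethrin 5000 ppm and 3 for isoniazid. The 3 for permethrin 5000 ppm were Ces1g, Txnrd1 and Gsta2, and the 3 for isoniazid were Cyp1a1, Ces1f and Ces1g.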

How the data were processed

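Lung RNA from 39 mice was measured on Affymetrix whole-genome mouse arrays, 1 array per mouse, and the depth of such values is set by the number of arrays. The deposited values are linear signal intensity per probe set, made by the authors with MAS5, per the submitters' processing notes, with the version not given in the sources used here. The RNA was extracted with a column kit and labelled with a 3' in vitro transcription kit, per the labels' protocols. Of 45101 probe sets, 34945 had 1 gene symbol, 932 several and 9160 none, and 64 were controls. Signals were taken to log2 with no pseudocount and quantile normalized over all 39 arrays. The upper 60% of probe sets by mean were kept (mean log2 signal of 3.43 or more), with the brightest set for each gene, and Gapdh was left out, giving 13020 genes. The 19 arrays of 14 days were fitted with limma 3.58.1 in R 4.3.3 (trended empirical Bayes), with treatment and ratio group as terms and Benjamini-Hochberg adjustment over all genes. Single values per array were compared by exact permutation within treatments. Figures used matplotlib 3.10.9 in Python 3.11.15.

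Genes were named by rule: the 15 largest rises and 15 largest falls among genes called with the same sign in all 4 treatments, up to 4 called members of each list by p-value, the 10 genes with the widest probe set gaps, and a short set always named. Further list members and treatment genes were named after their values were seen. The 7 lungs and the 37 lists were chosen with earlier results of these data known. Scripts were tested on simulated data. Alternatives were other scalings, filters, ratio limits of 0.5 and 1, the ratios as numbers, array weights, covariates, a replicate block and each lung left out. Protein length was not used here.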

Additional observations from a re-analysis of the deposited data

Results flagged for a closer look

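Of 123 values examined in the 7 high-ratio lungs, 9 had 1 lung far from the others, where chance alone marks about 1 in 20 groups. The Actb difference between its middle and 5' sets was 1.14 (log2) in the highest lung, against 0.68 in the next. On the normalized log2 scale, Malat1, a nuclear noncoding RNA, was at 6.17 in isoniazid replicate 5, with the next lung at 10.67. Without that lung Malat1 was 1.77 higher in high-ratio lungs and passed (limma adjusted p = 0.0184), against 0.97 with it (adjusted p = 0.397). Myl9 was at 9.71 in the same lung (next 9.22), Wdr77 at 8.46 (next 8.06) and 0610040B10Rik at 5.30 (next 4.28), all as the highest of the 7. Dnajb4 was at 9.18 in isoniazid replicate 3 (next 9.05). Exosc3 was at 5.12 in permethrin 5000 ppm replicate 5 (next 5.64) and Dach1 at 6.19 in the same lung (next 6.97), both as the lowest. AY036118 was at 7.83 in control replicate 5 (next 8.98), also the lowest.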

How the results depend on the processing

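Counts called between high-ratio and other lungs depended on the settings. Centring each array on its median gave 2949 genes (59 higher, 2890 lower), 23 heat shock, 8 cell cycle and 26 fibroblast genes. The Gapdh ratio as a number gave 2040 (878 higher), 3 cell cycle and 14 fibroblast genes, and the Actb ratio as a number gave 908 higher, 3 cell cycle and 12 fibroblast genes. A limit of 0.5 gave 806 (459 lower). Heart and liver scores as covariates gave 801 (264 higher, 537 lower), 9 heat shock and 4 fibroblast genes. The added B cell and neutrophil scores gave 26 (9 higher, 17 lower), 1 heat shock, 0 cell cycle and 0 fibroblast genes. Cell cycle calls were 3 with the deposited scaling, 2 with the upper 40% of probe sets and 8 with array weights. With high-ratio lungs left out, permethrin 5000 ppm gave 3 genes and permethrin 10000 ppm 28. The cause of these changes was not tested.

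The labels give no shared animal or batch to a replicate number, and same-numbered 14-day lungs did not all deviate together (8 of 27 pairs correlated above 0.1, range -0.336 to 0.366, and 6 of 19 lungs correlated best with their own number). At 7 days 11 of 30 pairs correlated above 0.1, with a median of 0.0605, against -0.0364 for pairs of other numbers. With a replicate block the counts were 511 (131 higher, 380 lower), 7 heat shock and 1 cell cycle gene, and 0 at 7 days (limma, 785 positive and 446 negative slopes at an unadjusted p under 0.05).

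Leaving out 1 lung gave 675 to 1838 genes, 210 to 689 higher, 462 to 1255 lower, 10 to 18 heat shock, 5 to 12 cell cycle and 4 to 9 fibroblast genes, 2 to 8 for permethrin 5000 ppm, 8 to 21 for permethrin 10000 ppm, 1 to 3 for isoniazid, 55 to 801 at 7 days, and an Actb difference of 0.66 to 0.89. Of 97 called single results, 96 kept their sign under every alternative run and 9 kept their call. The exception in sign was Rtkn2, at -0.029 with median centring. Calls gained were Cyp1a1 in 6 of 36 alternatives, Malat1 in 1 and Gsta2 in 1 (0.49 by the Actb ratio, limma adjusted p = 0.0478). Among single values, the 18S level passed at -0.12 when quantile normalized, and Pcx at -0.50, bioB at -0.11 and cre at -0.06 without isoniazid replicate 5 (exact permutation p = 0.0418, 0.0394, 0.0431 and 0.0438, unadjusted).

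Values that were not called changed sign as follows. Actb was 0.13 with the deposited scaling. Scgb1a1 was 0.24 with it, 0.021 centred and -0.013 to 0.0037 with single lungs left out. Egr1 was -0.21 centred, -0.0851 at the limit of 0.5, -0.030 at 1, -0.089 with array weights and -0.051 to 0.13 with single lungs left out. Gsta2 was -0.14 centred, -0.053 without treatment, -0.0248 with B cell and neutrophil scores and -0.065 to 0.28 with single lungs left out. Nqo1 was 0.13 by the Gapdh ratio, 0.018 at 0.5, 0.28 by the Actb ratio, 0.027 with the replicate block and -0.25 to 0.19 with single lungs left out. Srxn1 was 0.039 by the Gapdh ratio, 0.036 at 1, 0.14 by the Actb ratio, 0.032 with heart and liver scores and -0.13 to 0.13 with single lungs left out. Tfrc was 0.015 by the Actb ratio, 0.049 with the block and -0.17 to 0.031 with single lungs left out, and Malat1 was -0.33 by the Actb ratio. Fos was 0.12 with the block and -0.12 to 0.015 with single lungs left out. Sftpc was -0.011 at 0.5 and -0.030 with the block. The bioB difference was 0.0019 at 1. The 18S level difference was -0.049 to 0.028 with single lungs left out.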
